A study of Homo sapiens with 16 samples.

Results

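The aldehyde dehydrogenase (ALDH) mRNAs described here are those of ALDH2, ALDH1B1, ALDH3A2, ALDH4A1, ALDH5A1, ALDH6A1, ALDH7A1, ALDH9A1, ALDH16A1 and ALDH18A1. They were taken by gene symbol from the deposited table, and all 10 listed genes were present among its 13148 genes. They came from 293S cells, an adherent human line of the HEK293 family, in 2 groups. One group had received 1 mM sodium arsenite for 30 minutes, and the other, the control, had no treatment. RNA of each group was sedimented through a sucrose gradient, where larger RNA-protein particles travel further, and 8 fractions were sequenced per gradient, 1 library each. The genes were chosen by name, with earlier results of these data known, and the shares in all 16 libraries count as used in that choice, so their values are a description. Without replicates the spread between libraries of one kind is unknown, and no p-value was computed.

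The deposited value of a gene is the share of its total that lay in each fraction of a gradient, so the 8 shares of a gradient add up to 1. Shares carry no expression level. The amount of each mRNA, whether per cell or in all, is therefore unknown, markers of the cell line could not be read as levels, and the read depth behind a share is unknown. Position here means the average fraction number of an mRNA, with its shares as weights. The shift is the position with arsenite minus the position in the control, and the median shift over all genes was −1.46 fractions. Members are set against that median by the relative shift, which is the shift minus the median. The weight that the authors gave to each fraction is not stated in the labels or headers, and the common shift depends on it. With size factors computed as medians of ratios it was −0.23. Such factors bring the typical gene to a like level in all 16 libraries, so a small common shift follows from the method. That value is therefore no estimate of how far mRNAs moved. Whether fraction 1 was the top or the bottom is not in the labels. Arsenite fraction 3 listed 728 genes at 0, against 35 to 460 genes in each of the other libraries.

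Aldehyde dehydrogenases oxidise reactive aldehydes to acids with NAD or NADP as the electron acceptor, in most cases through a cysteine thiol in the active site. Some clear aldehydes made from ethanol or lipids, and others act as fixed steps in the breakdown of amino acids, most of them in mitochondria. Arsenite reacts with thiols, causes oxidative stress and reduces translation in many cell types. On such gradients an mRNA that carries more ribosomes sediments further.

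No pair of members is close to identical in sequence. In 1 annotated transcript per gene from GENCODE release 29, the closest pair was ALDH2 and ALDH1B1, with 72.5% identical bases over 1544 aligned bases of their coding parts. The other 44 pairs had 50.2% to 60.9%. The longest stretch that ALDH2 and ALDH1B1 share without a mismatch was 25 bases, against 9 to 20 bases in the other pairs. The 90 bases around it, bases 270 to 359 of the coding part in both genes, are shown because this is the longest run over which a read could not tell the closest pair apart. Capitals mark the 20 bases that differ between the pair.
ALDH2: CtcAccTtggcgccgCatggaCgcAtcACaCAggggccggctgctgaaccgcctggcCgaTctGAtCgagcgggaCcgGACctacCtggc
ALDH1B1: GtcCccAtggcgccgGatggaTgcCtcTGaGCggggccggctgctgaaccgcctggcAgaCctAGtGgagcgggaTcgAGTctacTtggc
The coding part is 1554 nt in both genes, spread over 13 exons in ALDH2 and in 1 exon in ALDH1B1. Coding parts of 8 members ran from 1458 to 1692 nt, and those of ALDH18A1 and ALDH16A1 were 2388 and 2409 nt.

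All 10 ALDH mRNAs lay at lower fraction numbers with arsenite than in the control. The position was lower with arsenite for 98.3% of all genes. Positions of the members ran from 2.65 to 3.38 with arsenite, with a median of 2.99, and from 4.87 to 5.87 in the control, with a median of 5.59. Over all genes the median position was 3.10 with arsenite and 4.54 in the control. With arsenite, 9 of the 10 lay between the quartiles of all genes, at 2.66 and 3.50, and in the control 9 of the 10 lay above the upper quartile of 4.96. The ALDH mRNAs thus lay beyond the bulk of mRNAs in the control gradient and within it with arsenite.

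The control shares were gathered in fractions 6 and 7. In the arsenite gradient the members had 2.35% to 5.98% of their total in fractions 6 and 7 together, against 34.4% to 71.8% in the control gradient. Over all genes the medians were 4.58% with arsenite and 26.4% in the control. Fraction 6 or 7 was the largest fraction of 9 members in the control, as it was for 36.5% of all genes. With arsenite the largest fraction was fraction 2 for 7 members and fraction 3 for 3, and 71.7% of all genes had their largest share in 1 of these fractions.

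**Figure D1:**
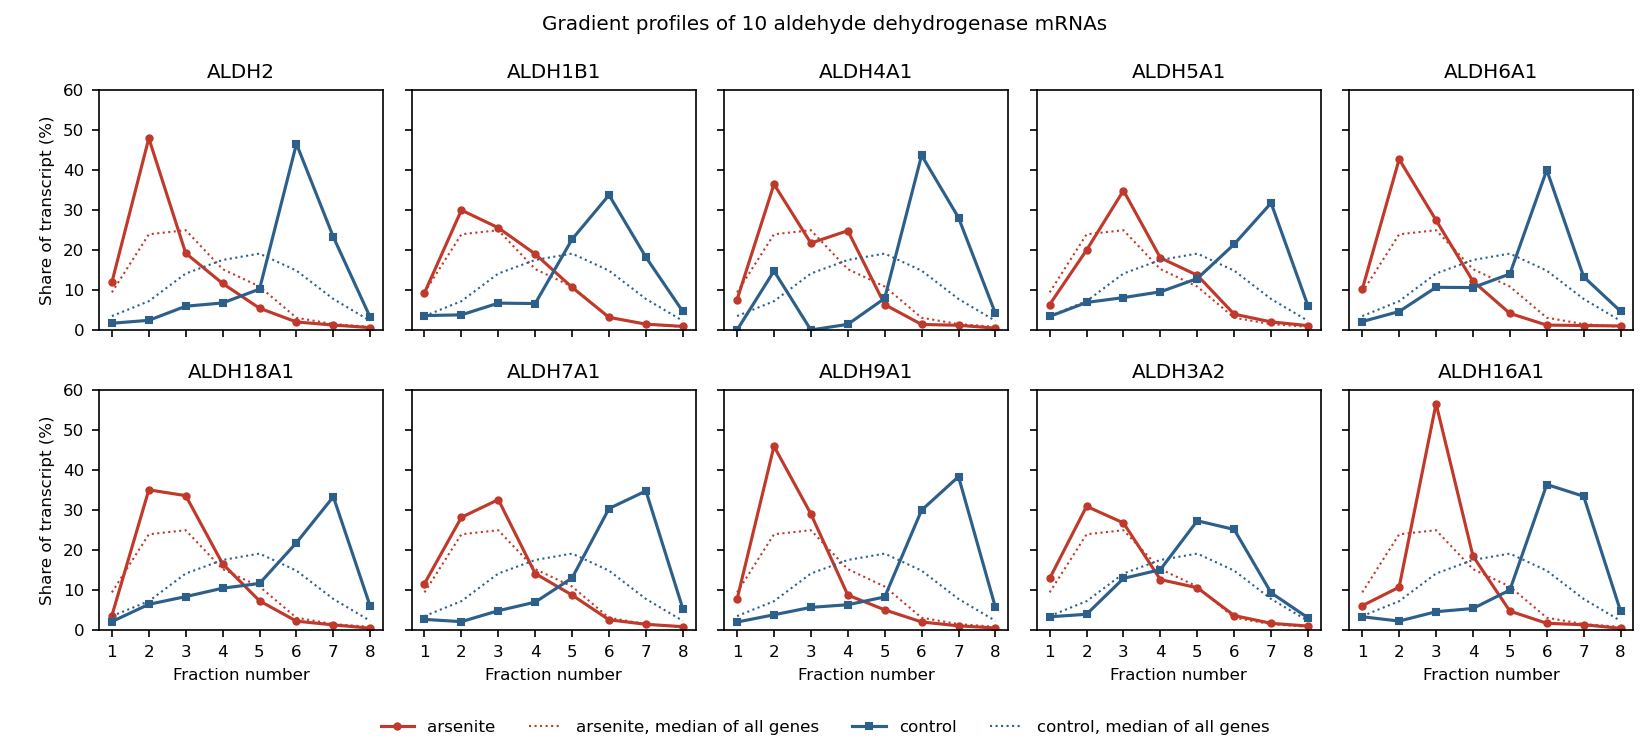
Share of each ALDH mRNA (percent of its total in a gradient, vertical axis) by fraction number (horizontal axis) in the arsenite gradient (red circles) and the control gradient (blue squares), 1 library per point; dotted lines are the medians of all genes. The arsenite curves are highest in fraction 2 or 3, and the control curves in fraction 6 or 7 except that of ALDH3A2, which is highest in fraction 5.

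Of the mitochondrial enzymes that clear acetaldehyde, ALDH2 had the larger shift. ALDH2, the main enzyme that turns acetaldehyde from ethanol into acetate, had 12.0%, 47.9%, 19.2%, 11.6%, 5.45%, 2.01%, 1.23% and 0.590% of its total in fractions 1 to 8 with arsenite. In the control the 8 shares of ALDH2 were 1.69%, 2.42%, 5.95%, 6.76%, 10.2%, 46.6%, 23.3% and 3.15%. The largest share thus stood in fraction 2 with arsenite and in fraction 6 in the control, at nearly the same height. ALDH2 lay at 2.65 with arsenite, the lowest of the members, and at 5.70 in the control, a relative shift of −1.60.

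ALDH1B1, its closest relative in sequence, also acts on acetaldehyde and on retinaldehyde. Its shares in fractions 1 to 8 were 9.30%, 30.0%, 25.6%, 19.0%, 10.7%, 3.16%, 1.46% and 0.902% with arsenite, and 3.60%, 3.79%, 6.72%, 6.62%, 22.7%, 33.7%, 18.2% and 4.63% in the control. Both profiles were flatter than those of ALDH2, with a smaller peak in the same fractions. ALDH1B1 lay at 3.12 with arsenite and 5.38 in the control, and its relative shift was −0.81.

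Proline is both made and broken down by members of the family. ALDH18A1, which makes the proline precursor glutamate semialdehyde from glutamate and so runs opposite to the oxidising members, lay at 3.03 with arsenite and 5.51 in the control (relative shift −1.03). Its largest shares with arsenite were 35.0% in fraction 2 and 33.6% in fraction 3, and in the control 33.3% in fraction 7 and 21.8% in fraction 6. Without fraction 7 its relative shift was −0.58. ALDH4A1, which oxidises glutamate semialdehyde to glutamate in proline breakdown, lay at 2.97 with arsenite and 5.67 in the control (relative shift −1.24).

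ALDH4A1 was the 1 member with values of 0, while the other 9 had none. Its shares in fractions 1 to 8 were 7.61%, 36.5%, 21.7%, 24.8%, 6.36%, 1.39%, 1.18% and 0.465% with arsenite. In the control it was listed at 0 in fractions 1 and 3, with 14.8% in fraction 2 between them and 1.42%, 7.92%, 43.7%, 28.1% and 4.14% in fractions 4 to 8. The bulk of the control profile lay in fractions 6 and 7, at 71.8% together, the highest of the members. The low fractions of that profile were uneven. Without ALDH4A1, the median relative shift of the members was −1.10, against −1.15 with it.

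ALDH5A1, ALDH6A1 and ALDH7A1 each take 1 step in the breakdown of other amino acids or their products. ALDH5A1 oxidises succinic semialdehyde, the last step in the breakdown of the neurotransmitter GABA. It had 6.37%, 20.0%, 34.9%, 18.0%, 13.7%, 3.96%, 2.03% and 1.09% in fractions 1 to 8 with arsenite, and 3.39%, 6.89%, 8.10%, 9.54%, 12.9%, 21.4%, 31.7% and 6.02% in the control. It kept the largest share of the members in fractions 5 to 8 with arsenite, 20.8%, against 72.1% in the control. At 3.38 it lay furthest along of the members with arsenite, and it lay at 5.43 in the control. Its relative shift of −0.59 was just past the threshold of 0.5 fractions used for calls. Without fraction 3 or fraction 7 the relative shift was −0.40 or −0.18, under that threshold.

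ALDH6A1, the methylmalonate semialdehyde dehydrogenase of valine and thymine breakdown, lay at 2.71 with arsenite and 5.26 in the control (relative shift −1.10). Its largest share was 42.7% in fraction 2 with arsenite and 40.0% in fraction 6 in the control. ALDH7A1, which oxidises aminoadipic semialdehyde in lysine breakdown and is found in mitochondria and cytosol, lay at 2.98 with arsenite and 5.82 in the control (relative shift −1.39). Its shares were spread over neighbouring fractions, with 28.2% and 32.6% in fractions 2 and 3 with arsenite, and 30.4% and 34.8% in fractions 6 and 7 in the control.

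Outside mitochondria, the members lay at both ends of the range. ALDH9A1, a cytosolic enzyme that oxidises trimethylaminobutyraldehyde on the way to carnitine, had 7.70%, 46.0%, 29.0%, 8.73%, 5.04%, 2.01%, 1.04% and 0.504% in fractions 1 to 8 with arsenite. Its control shares were 1.98%, 3.81%, 5.66%, 6.31%, 8.27%, 30.0%, 38.3% and 5.66%. ALDH9A1 lay at 2.70 with arsenite and at 5.87 in the control, the furthest along of the members there, and its relative shift of −1.71 was the most negative of the 10.

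ALDH3A2, the fatty aldehyde dehydrogenase of endoplasmic reticulum and peroxisome membranes, had the smallest shift. Its shares in fractions 1 to 8 were 12.9%, 30.9%, 26.8%, 12.6%, 10.6%, 3.61%, 1.67% and 0.985% with arsenite, and 3.30%, 3.93%, 12.9%, 15.1%, 27.3%, 25.1%, 9.30% and 3.04% in the control. The control profile peaked in fraction 5, earlier than that of any other member, while the arsenite profile was like that of ALDH1B1. ALDH3A2 lay at 2.99 with arsenite and 4.87 in the control. Its relative shift of −0.42 did not reach the threshold, though without fraction 5 or fraction 7 it was −0.51.

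ALDH16A1, a family member that in mammals lacks the catalytic cysteine, had the narrowest arsenite profile. With arsenite its 8 shares were 6.07%, 10.7%, 56.6%, 18.5%, 4.73%, 1.68%, 1.32% and 0.415%, and in the control they were 3.31%, 2.23%, 4.57%, 5.38%, 9.99%, 36.4%, 33.4% and 4.71%. More than 50% of its total lay in arsenite fraction 3 alone, where the other members had 19.2% to 34.9%. That library was also the one with the most genes at 0, 728. ALDH16A1 lay at 3.17 with arsenite and 5.83 in the control (relative shift −1.20, and −0.90 without fraction 3). The 7 members found in mitochondria had relative shifts from −1.60 to −0.59 with a median of −1.10. Of the other 3, ALDH16A1 at −1.20 lay within that range, ALDH9A1 at −1.71 lay below it and ALDH3A2 at −0.42 above it. The place of the ALDH16A1 protein in the cell was left unassigned.

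**Figure D2:**
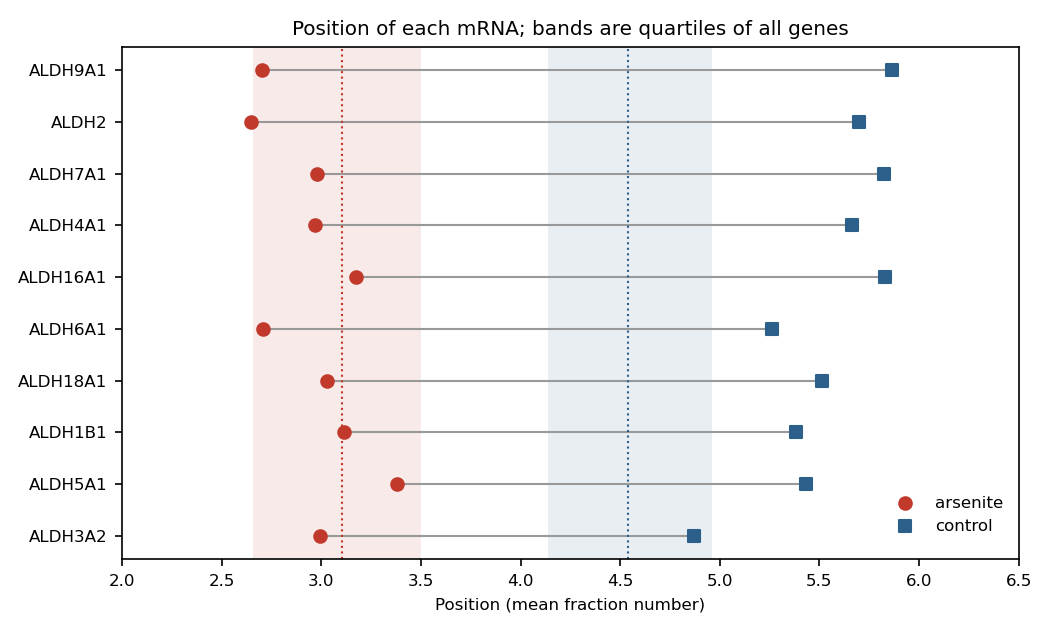
Position (mean fraction number, horizontal axis) of each ALDH mRNA with arsenite (red circles) and in the control (blue squares), 1 gradient each, ordered by relative shift with the most negative at the top. Bands and dotted lines give the quartiles and medians of all genes: 9 of the 10 arsenite points lie within the arsenite band, and 9 of the 10 control points lie above the control band.

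Calls required a relative shift of 0.5 fractions or more in either direction, and the same sign after removal of any 1 fraction number from both gradients. By this rule 9 of the 10 ALDH mRNAs moved lower and none moved higher, while 24.0% of all genes moved lower and 23.6% moved higher. ALDH3A2 was the exception. The median relative shift of the members was −1.15, with 7 of the 10 below −1, as were 9.51% of all genes, and over all genes the quartiles of the relative shift were −0.52 and 0.48. The members' share in fractions 5 to 8 had a median of 10.3% with arsenite, with a range of 7.51% for ALDH6A1 to 20.8% for ALDH5A1. In the control the median was 80.8%, and the range ran from 64.8% for ALDH3A2 to 84.5% for ALDH16A1. The median of all genes was 16.4% with arsenite and 53.9% in the control. No member had over 50% of its total in fractions 5 to 8 with arsenite and all 10 did in the control, against 2.34% and 58.6% of all genes. The profiles of all 10 were narrower with arsenite than in the control, as were those of 86.6% of all genes. The SD of the fraction number within a profile was 1.08 to 1.49 fractions with arsenite and 1.41 to 1.85 in the control.

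The order of the members in the 2 gradients differed. With arsenite it ran from ALDH2, ALDH9A1 and ALDH6A1 at low numbers, through ALDH4A1, ALDH7A1, ALDH3A2, ALDH18A1 and ALDH1B1, to ALDH16A1 and ALDH5A1. In the control it ran from ALDH3A2, ALDH6A1 and ALDH1B1 through ALDH5A1, ALDH18A1, ALDH4A1 and ALDH2 to ALDH7A1, ALDH16A1 and ALDH9A1. ALDH9A1 was thus second lowest with arsenite and highest in the control, and ALDH5A1 was highest with arsenite and in the lower part of the control order. With 1 library per point, no spread is known for neighbours in either order.

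Genes far along in the control tended to have the more negative shifts. Over the 13148 genes, which share the same libraries, Spearman's rho between shift and control position was −0.55, as a description, since the shift contains the control position. In the control, 8 of the 10 members lay above percentile 90 of all genes. The shift of each member was therefore also set against the median shift of the genes whose control position lay within 0.25 fractions of its own, which were 508 genes for ALDH9A1 and 3557 for ALDH3A2. All 10 lay below this local median, as did 50.1% of all genes against theirs, but the differences were smaller. Their median was −0.46 in place of −1.15. With this comparison 5 of the 10 moved lower, namely ALDH2 (−0.85), ALDH9A1 (−0.85), ALDH6A1 (−0.64), ALDH7A1 (−0.58) and ALDH4A1 (−0.52), while 20.1% of all genes did. ALDH18A1, at −0.41, ALDH16A1, at −0.37, ALDH1B1, at −0.28, ALDH3A2, at −0.21, and ALDH5A1, at −0.02, were under the threshold.

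**Figure D3:**
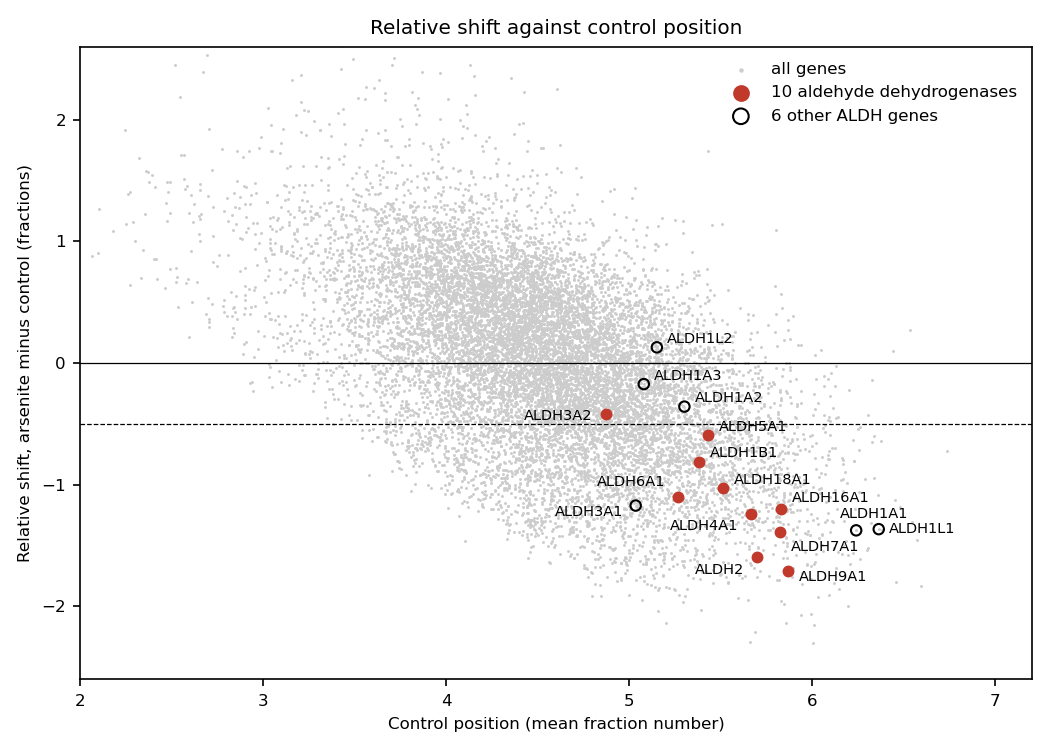
Relative shift (arsenite minus control, in fractions, vertical axis) against control position (mean fraction number, horizontal axis) for all genes (grey, 23 genes outside the axes), the 10 ALDH mRNAs described here (red) and the 6 other ALDH genes in the table (open circles). The dashed line marks −0.5, and the red points lie in the lower right, where control positions are high and relative shifts negative.

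Genes of like coding length lay elsewhere in the control gradient. The 3419 other genes with a coding part of 1458 to 2409 nt, the range of the members, had a median position of 3.22 with arsenite and 4.62 in the control, against 2.99 and 5.59 for the members. The median relative shift of those genes was 0.09, with quartiles of −0.39 and 0.53, and 20.4% of them moved lower. Against the genes within 10% of its own coding length, each of the 10 members had a negative difference, as did 49.9% of all genes, and the members' median was −1.24. In the annotated transcripts, 5 members had no upstream ATG in the 5 prime untranslated region, namely ALDH2, ALDH4A1, ALDH5A1, ALDH18A1 and ALDH16A1. The median over all genes was 1. ALDH9A1, the member with the most negative relative shift, had 6 such ATGs, but ALDH2, with the next most negative, had none. ALDH5A1, with a small relative shift, had none, but ALDH3A2, with the smallest, had 2.

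**Figure D4:**
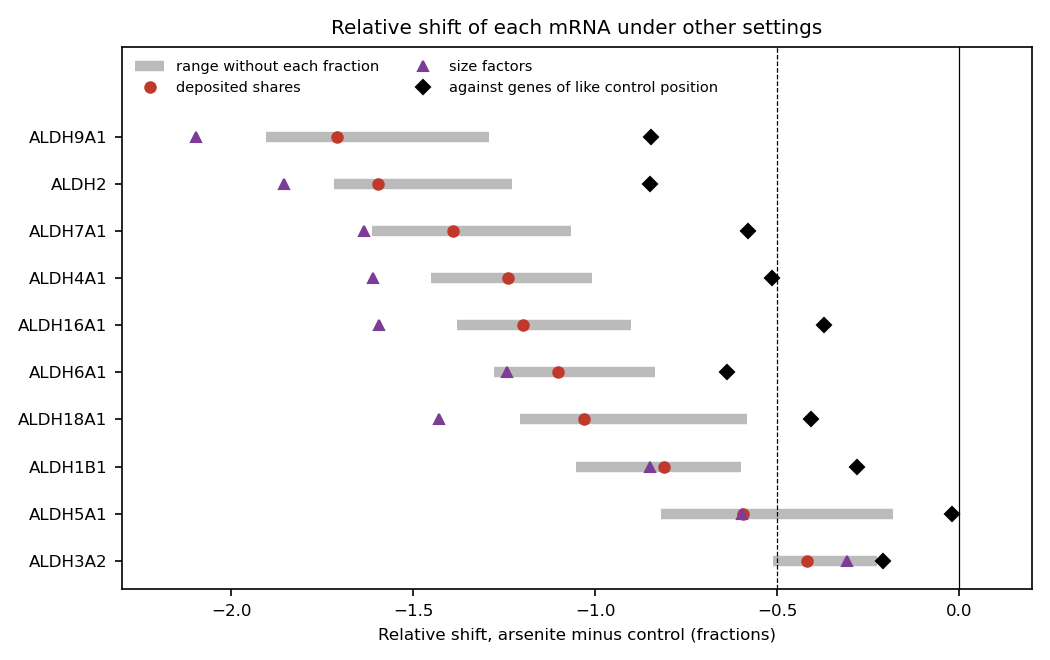
Relative shift (arsenite minus control, in fractions, horizontal axis) of each ALDH mRNA from the deposited shares (red circles), with size factors (purple triangles), as the range without each fraction in turn (grey bars), and against genes of like control position (black diamonds). The dashed line marks −0.5. All points lie below 0, and the black diamonds lie closest to 0 for every member.

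With size factors the relative shift was more negative for 9 of the 10 members, and the median was −1.51. The same number of members, 9, moved lower, while 26.4% of all genes did. ALDH9A1 then had a relative shift of −2.10 and ALDH2 one of −1.86, and ALDH3A2, the 1 member that came closer to the median gene, had one of −0.31.

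The genes most like each member were those with the smallest summed difference over the 16 shares, among genes with no 0. For ALDH7A1 the nearest was SDHA, a subunit of succinate dehydrogenase in the citric acid cycle and respiratory chain, with a summed difference of 19.0 percentage points, followed by RPA1 (19.1) and CAT, the peroxide-degrading catalase (24.0). For ALDH5A1 they were GPD2, the mitochondrial glycerol phosphate dehydrogenase (17.5), ITGAV (17.6) and SLC6A15 (20.1). ALDH6A1 was nearest to PRCP (16.1), NFS1, which supplies sulfur for iron-sulfur clusters (23.9), and CCDC86 (25.5), and ALDH4A1 was nearest to SOX3 (45.1), the mitochondrial aspartate aminotransferase GOT2 (52.1) and RNH1 (53.9).

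ALDH2 was nearest to PRPF19 (25.2 percentage points), RUVBL1 (26.9) and the tubulin TUBB4A (27.8), and ALDH9A1 to the glycolytic enzyme PFKP (22.4) and the co-chaperones DNAJA2 (25.4) and STIP1 (29.1). ALDH1B1 was nearest to TUBGCP4 (24.8), GALM (25.5) and MORF4L2 (26.5), and ALDH18A1 to ABCF2 (19.3), OS9 (20.5) and DHCR7 (21.5). ALDH3A2 was nearest to GPM6B (17.9), the translation termination factor ETF1 (18.3) and STX18 (18.4), and ALDH16A1 to HDGFRP2 (40.9), HNRNPA2B1 (53.9) and CDH4 (55.6). The nearest other ALDH member was 36.3 percentage points away for ALDH5A1 and ALDH18A1, the most alike pair, and 70.3 for ALDH16A1, whose nearest was ALDH7A1. For every member the genes named above lay closer than this. They were the closest among 11625 genes with no 0, against a choice among only the other members. That order was therefore nearly fixed in advance and says nothing about likeness within the family.

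Of 9 further ALDH genes looked for, 6 were in the table. ALDH1A1, which makes retinoic acid, lay at 3.41 with arsenite and 6.24 in the control, and the folate enzyme ALDH1L1 at 3.54 and 6.36. ALDH3A1, an enzyme of lipid-derived aldehydes, lay at 2.41 with arsenite and 5.03 in the control. These 3 moved lower, with relative shifts of −1.38, −1.37 and −1.17, but they were listed at 0 in 3, 5 and 2 libraries, and ALDH1A1 had 0 in arsenite fraction 3 between 12.1% and 21.8% in its neighbours. With size factors the values were −2.42 for ALDH1A1, −2.21 for ALDH1L1 and −1.89 for ALDH3A1. Single fractions weighed on them too, with −0.77 for ALDH1A1 without fraction 1 and −2.11 without fraction 5, −0.77 for ALDH1L1 without fraction 3, and −0.63 for ALDH3A1 without fraction 1. The 3 with no 0 did not reach the threshold. They were ALDH1A2 (−0.36, but −0.53 without fraction 5), ALDH1A3 (−0.17, but 0.23 with size factors and 0.22 without fraction 6), both also makers of retinoic acid, and the mitochondrial folate enzyme ALDH1L2 (0.13, but −0.15 with size factors and −0.12 without fraction 5). ALDH1L2 had 29.8% of its total in fractions 5 to 8 with arsenite, more than any of the 10 members, and 62.5% in the control. ALDH1A1 (38.6%) and ALDH1A3 (21.6%) also had more there with arsenite than any member, while ALDH1L1, ALDH3A1 and ALDH1A2 did not. The median relative shift of the 6 was −0.77, and −1.20 with size factors.

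Enzymes that act beside the members were grouped in short lists, which do not hold every gene of a pathway or class. A list of 12 alcohol dehydrogenases, aldo-keto reductases, carbonyl reductases and the esterase ESD, which act on aldehydes, ketones or their products, had 9 genes in the table. Of these listed genes 8 moved lower and none moved higher, with a median relative shift of −1.34. The list left out ADHFE1 and AKR7A3, named here after their values were seen, which moved higher (1.77 and 0.74) and were each listed at 0 in 6 libraries. AKR1C3, which is on the list and moved lower (−1.47), was listed at 0 in 4 libraries. Over all 10 genes of the table with an ADH, AKR or CBR symbol, without ESD, 7 moved lower and 2 moved higher, and the median was −1.03. ESD, which releases formate in formaldehyde removal, lay at 2.13 with arsenite and 5.16 in the control (−1.57, and −0.79 without fraction 1). CBR1 lay at 2.17 with arsenite and 5.18 in the control (−1.56, and −2.38 with size factors). ADH5, the formaldehyde-oxidising enzyme, lay at 2.98 and 5.22 (−0.79, and −0.51 without fraction 6). CBR4, at −0.28, did not reach the threshold, and without fraction 6 it was at 0.08. Background shares of genes moved lower and higher are the 24.0% and 23.6% given above.

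Around ALDH6A1, 17 of 24 enzymes of branched-chain amino acid breakdown moved lower and 1 moved higher, with a median of −0.77. BCKDHA and DBT, subunits of the same branched-chain keto acid dehydrogenase, stood at opposite ends of the list. BCKDHA lay at 2.02 with arsenite and 5.69 in the control (−2.21), and DBT lay at 3.75 and 4.61 and moved higher (0.59, but 0.26 with size factors and 0.30 without fraction 5). ECHS1, a hydratase of valine and fatty acid breakdown, had a relative shift of −1.62, and PCCA, a subunit of propionyl-CoA carboxylase, one of 0.26 (0.51 with size factors, but −0.29 without fraction 1).

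Around ALDH4A1, ALDH18A1 and ALDH5A1, 7 of 10 measured genes of proline, glutamate and GABA metabolism moved lower and 1 moved higher, with a median of −0.68. OAT, which makes glutamate semialdehyde from ornithine, lay at 2.67 with arsenite and 5.89 in the control (−1.76, and −1.15 without fraction 7), and GOT1, the cytosolic aspartate aminotransferase, had a relative shift of −1.45. ABAT, which produces the substrate of ALDH5A1, stood at −0.10, but at 0.28 with size factors and 0.08 without fraction 3. GAD1, which makes GABA, lay at 3.04 and 3.83 and moved higher (0.67, but 0.42 with size factors).

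Around ALDH7A1, 2 of 6 lysine breakdown genes moved lower and 1 moved higher, with a median of −0.12. OGDH (−0.95, but −0.48 without fraction 7) and GCDH (−0.78, but −0.35 without fraction 6) moved lower. AADAT moved higher (0.70, but 0.43 without fraction 1), and AASS, which takes the first steps of lysine breakdown to the substrate of ALDH7A1, stood at 0.27 (0.15 with size factors, 0.04 without fraction 5 and 0.52 without fraction 7). Of 6 sphingolipid and carnitine genes around ALDH3A2 and ALDH9A1, 2 moved lower and none moved higher, against 24.0% and 23.6% of all genes. HACL1 (−1.37, and −2.21 with size factors) and TMLHE, the first enzyme of carnitine synthesis (−0.95), were those 2, and the sphingosine kinases SPHK1 (0.24, and 0.43 with size factors) and SPHK2 (0.24, and 0.41) did not reach the threshold, and without fraction 7 they were at 0.0027 and 0.09. The median of these 6 was −0.03, and 0.33 with size factors, the opposite direction.

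**Figure D5:**
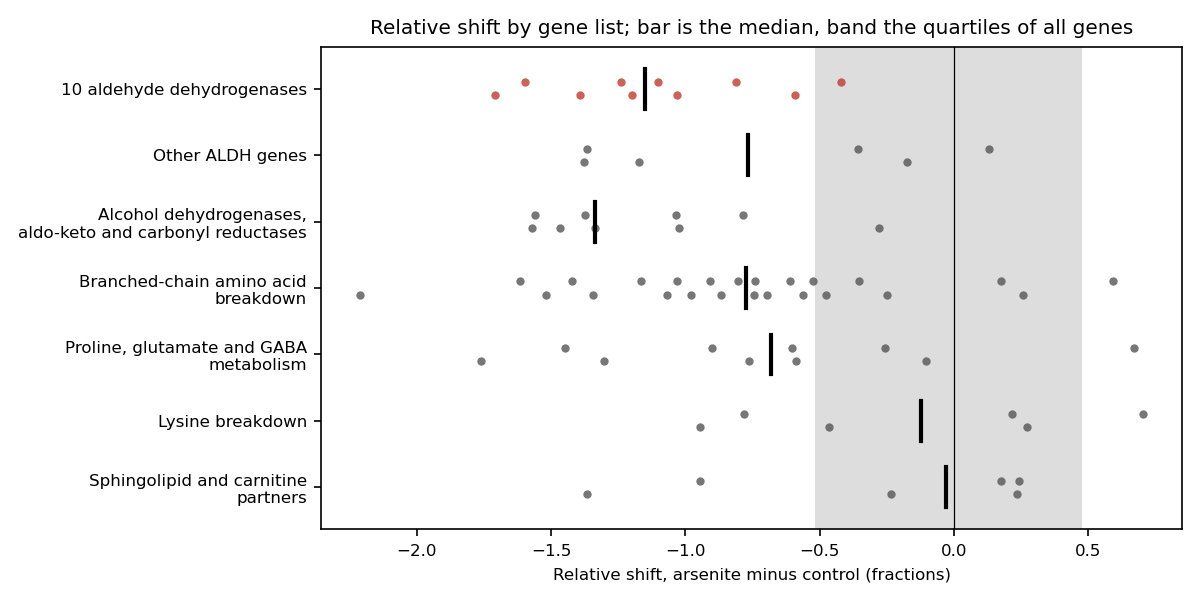
Relative shift (arsenite minus control, in fractions, horizontal axis) of each gene in the 10 ALDH mRNAs (red) and in 6 lists of related genes (grey), with the median of each list as a black bar and the quartiles of all genes as a grey band. The bar of the ALDH mRNAs lies at −1.15, and those of the 6 lists lie between −1.34 and −0.03.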

How the data were processed

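The authors deposited 1 table of 13148 genes with a column for each of 16 libraries, in the unit fraction, the share of a gene's total in that fraction of its gradient. The gene models were exons from RefSeq, per the file headers, on hg19 according to the submitters' processing notes. The sources used here do not name the aligner, the counting method, the use of strand or the scaling between fractions. The 3 further columns deposited by the authors, scores, hold the average fraction number in each gradient and the difference between them. Recomputed positions matched these scores to within 8.4e-15. Groups were taken from sample titles.

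Positions, shifts and calls were computed over all genes with numpy 2.4.6 and pandas 2.3.3. The code was tested on simulated profiles with planted shifts and sampling noise only. That test says nothing about the spread between libraries. The members and lists were chosen with earlier results of these data known. Named genes were all members, all other ALDH genes in the table, the 2 lowest and 2 highest of each further list by relative shift, and the 3 genes most like each member. ADHFE1, AKR7A3 and AKR1C3 were named in addition, after their values were seen. GENCODE release 29 gave 1 principal transcript for 13050 genes (99.3%), 734 of them through an older symbol, and since its build is not hg19 no coordinates are printed. Alternatives were size factors, a pseudocount of 1 percentage point, leaving out each fraction, the point where the summed shares reach 50%, other genes to set the median, other thresholds and other sets of fractions.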

Additional observations from a re-analysis of the deposited data

How the results depend on the processing

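The count of 9 members moved lower was 8 to 10 without each fraction in turn, where 19.5% to 25.5% of all genes moved lower. It was 10 at a threshold of 0.25 fractions and 7 at a threshold of 1, where 31.3% and 9.33% of all genes moved lower. The members' median relative shift of −1.15 lay between −1.22 and −0.96 without each fraction, and was −1.06 with the pseudocount, −1.40 with the 50% point and −1.11 against the median of genes with no 0. Against genes of like control position, 5 members moved lower, the median was −0.46 and that of the mitochondrial members was −0.52, in place of −1.10. The cause was not tested. The comparisons by coding length, without ALDH4A1 and over every ADH, AKR and CBR gene were chosen after seeing the data. Of 140 relative shifts of single members under 14 alternatives, 132 kept their side of the threshold, 6 fell under it, 2 passed it and none changed sign. The median loss in fractions 5 to 8 was −67.2 percentage points, against −61.4 over fractions 6 to 8 and −59.1 over fractions 4 to 8. The sphingolipid and carnitine list had a mean of −0.32 against its median of −0.03. No paired analysis was possible because each treatment and fraction had 1 library. Depth is unknown, so small shares and values of 0 carry no interval.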
